A study of Mus musculus with 8 samples.

Results

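The transcripts of 10 mouse genes for histone methyltransferases and demethylases, Kmt2a, Kmt2c, Kmt2d, Kmt2e, Setd2, Nsd1, Ezh2, Ehmt1, Kdm4c and Kdm2b, were examined for peaks of the RNA-binding protein RBM45. A peak was assigned to a gene when its midpoint lay within the gene body on the same strand (mm10, GENCODE M21). The 10 genes are set beside 14290 protein-coding genes that held a peak in both replicates. They carried 746 of the 387749 distinct peaks of replicate 1, 513 of the 344700 of replicate 2 and 24 of the 16399 peaks in the authors' list of overlaps between the replicates, called shared peaks below.

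RBM45 binding had been profiled by iCLIP, in which UV light links a protein to the RNA it touches and the RNA that comes down with the protein is sequenced. The cells were mHiPPoE-2, a line of transformed mouse hippocampal neurons from strain Crl:CFW(SW)-024. All of them had been transduced with a lentivirus for FLAG-HA-tagged mouse RBM45, so the bound protein is the introduced, tagged one, which was pulled down with an antibody to HA. The series has 8 libraries in 4 groups of 2, namely CLIP and size-matched input (made with no antibody) from WT cells and the same pair from cells with the genotype Mettl3 KO, which lack the catalytic subunit of the main m6A methyltransferase of mRNA. The values here come from WT CLIP replicates 1 and 2. Nothing in the labels says that these came from separate cultures, so the spread between them may be technical. The depth per library is unknown here, since the sources give no read totals.

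Many histone methyltransferases put methyl groups on lysines of histone tails with a SET domain, and demethylases such as KDM4C and KDM2B take them off with a JmjC domain. Methylation of H3K4 marks promoters and enhancers, that of H3K36 marks the bodies of transcribed genes, and that of H3K9 and H3K27 marks silenced chromatin. Many of these genes are dosage sensitive in the brain, and loss of one copy of KMT2A, KMT2D, NSD1 or EHMT1 causes a developmental syndrome in people. Their pre-mRNAs are long and, with Kmt2d as an exception, mostly intronic. In bulk RNA, more peaks on a transcript can reflect more transcript or more binding, which cannot be told apart from peak lists alone.

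The height of each peak could be read back from the deposited values. The fold of a peak (a ratio the authors' peak caller gave) and its −log10 p fitted the formula fold = (height + 1)/(background + 1), with p from a Poisson distribution around the background and a whole number as height. A whole number met both values for 387747 peaks of replicate 1 and 344698 of replicate 2, and for every peak of the 10 genes. The height is taken here as the number of reads that pile up at the summit, and the background is the number the caller set against it. At the p threshold of 0.005 that the peak names carry, a single read passes only where the background is at most 0.1035 reads, 2 reads only up to 0.338 and 3 reads only up to 0.672. Of all distinct peaks, 76.7% in replicate 1 and 69.6% in replicate 2 had a height of 1. Such peaks are called single reads below, and read numbers given for a peak are summit heights. A wide peak may hold further reads away from its summit.

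On the 10 genes a height of 1 was also the most common one, in 524 of 746 peaks of replicate 1 (70.2%) and 279 of 513 of replicate 2 (54.4%). Heights of 3 or more made up 88 peaks (11.8%) and 120 peaks (23.4%), against 8.38% and 12.6% of all peaks. Peaks of the 10 genes were therefore somewhat taller than the bulk of the lists, but none was among the tallest. The highest reached 8 reads in replicate 1 and 10 in replicate 2, both in Kmt2d, against 775 and 1094 over all genes. The highest folds were 6.70 (Kmt2a, replicate 1) and 6.38 (Kmt2d, replicate 2), against 121.0 and 80.7. Median folds were 1.906 and 1.919, against 1.93 and 1.922 over all peaks, so by fold the peaks were not stronger. Their median backgrounds were higher, at 0.06654 and 0.08873 reads against 0.05545 and 0.06304, and a higher background raises the least height that can pass.

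**Figure D1:**
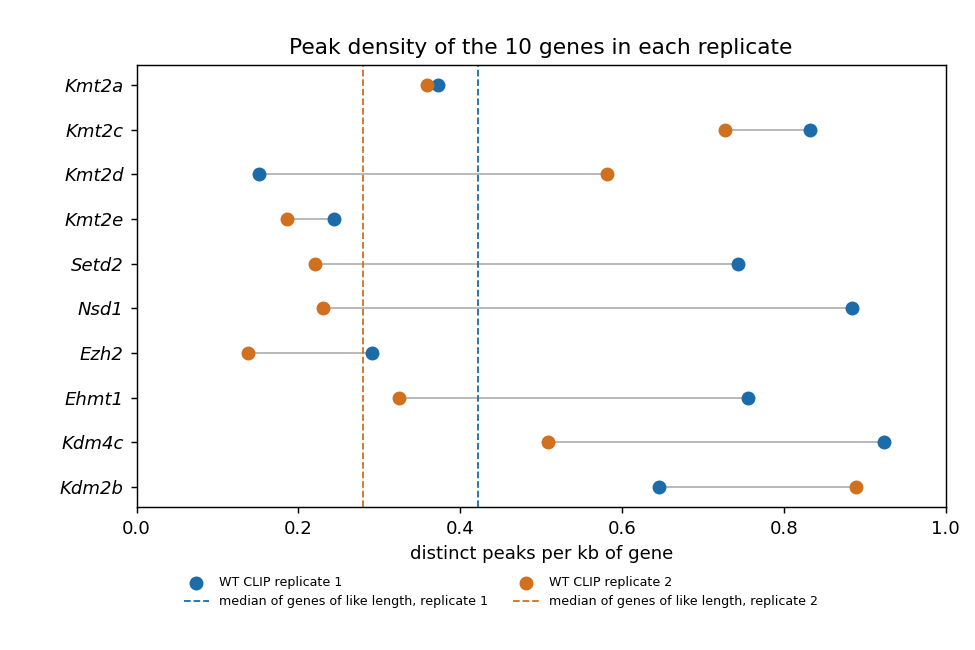
Distinct peaks per kb of gene (x axis) for each of the 10 genes, with WT CLIP replicate 1 in blue, replicate 2 in orange and a grey line joining them. Dashed lines are the medians of 5022 protein-coding genes of like length, 0.422 in replicate 1 and 0.280 in replicate 2. Kmt2a differs little between replicates, and Nsd1 and Setd2 differ most.

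Over the 10 genes the median was 0.695 peaks per kb in replicate 1 (range 0.152 to 0.924) and 0.342 in replicate 2 (range 0.138 to 0.890). The 5022 genes between 39.54 and 226.99 kb, the length range of the 10, had medians of 0.422 and 0.280. The quartiles of those genes ran from 0.0945 to 0.764 and from 0.0953 to 0.605, so both medians of the set lie inside the middle range of like genes.

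Among the H3K4 methyltransferases of the KMT2 family, Kmt2c carried the most peaks and Kmt2d the fewest in replicate 1. Kmt2c encodes a methyltransferase of enhancer H3K4 and spans 227 kb (chromosome 5, 25271798 to 25498783, minus strand). It held 189 peaks in replicate 1 (0.833 per kb) and 165 in replicate 2 (0.727 per kb). Of the 24 shared peaks 10 lay in it, the most of the 10 genes. The densities of Kmt2c in the 2 replicates were close, at the 80.7th and 82.7th percentile of genes of like length. Single reads made up 155 and 119 of its peaks.

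The shared peaks of Kmt2c were spread over 7 introns. Intron 3, which is 5.55 kb long and 2.45% of the gene, held 3 of them, starting at 25411273, 25414151 and 25414764. The tallest lay in intron 9, at 25379660 to 25379689, with folds of 4.72 and 3.39 on 4 and 3 reads. The one nearest to a splice site lay 32 nt from the 3′ splice site of intron 29 (25329288 to 25329322), with folds of 1.86 and 4.30 on 1 and 4 reads. In only 3 of the 10 did both replicates have at least 2 reads, and these were the one in intron 9 and 2 in intron 3.

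Kmt2a, which encodes the H3K4 methyltransferase that keeps Hox genes active, held 29 peaks in replicate 1 (0.372 per kb) and 28 in replicate 2 (0.359 per kb) over 77.9 kb (chromosome 9, 44803355 to 44881296, minus strand). The numbers were close, but 1 peak only was shared. It lay in intron 1, 8.51 kb from the start of the gene, at 44872771 to 44872800, with folds of 6.70 and 3.11 on 7 and 3 reads. The fold in replicate 1 was the highest of any peak on the 10 genes in that replicate. Intron 1 is 27.8 kb long and held 7 peaks in replicate 1 and 15 in replicate 2.

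Kmt2e encodes a SET domain protein for which methyltransferase activity is doubtful. It held 17 and 13 peaks (0.244 and 0.186 per kb) over 69.8 kb of chromosome 5 (23434441 to 23504235, plus strand). Every one of these peaks had at least 2 reads, at backgrounds (at least 0.132 and 0.238 reads) where a single read could not pass. The only shared peak lay in intron 1, at 23444399 to 23444444, with folds of 5.60 and 2.63 on 6 and 3 reads. Of the 17 peaks in replicate 1, 2 stand on both strands in the deposited list, so their strand does not assign them to this gene.

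Kmt2d encodes the partner enzyme of KMT2C at enhancers, and it was the one gene of the set whose peaks lay mainly in exons. It is short, 39.5 kb (chromosome 15, 98831669 to 98871204, minus strand), with 6 peaks in replicate 1 (0.152 per kb) and 23 in replicate 2 (0.582 per kb). Exons held 4 of the 6 and 14 of the 23, and they make up 50.2% of this gene, against 9.17% of the 10 genes together. Per kb, exons of Kmt2d had 0.202 peaks in replicate 1 and 0.706 in replicate 2, and its introns 0.102 and 0.457. No peak was shared, and every peak had at least 2 reads in each replicate. A single read could not pass at the backgrounds of these peaks (at least 0.183 and 0.259 reads), so the excess in replicate 2 holds none.

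The coding peaks of Kmt2d with a fold of at least 4 were all in replicate 2, and they are printed because 2 of them hold runs of CAG (each CAG in capitals). They are read from the transcript ENSMUST00000023741.15, 5′ to 3′, in the order of the transcript.
Kmt2d, chr15:98862893-98862928, minus strand, fold 6.38: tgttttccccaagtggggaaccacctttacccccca
Kmt2d, chr15:98862583-98862619, minus strand, fold 4.44: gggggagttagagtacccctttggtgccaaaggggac
Kmt2d, chr15:98846102-98846138, minus strand, fold 5.56: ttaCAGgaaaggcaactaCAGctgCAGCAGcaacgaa
Kmt2d, chr15:98845186-98845220, minus strand, fold 6.25: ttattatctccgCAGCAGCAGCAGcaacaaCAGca
Heights were 9, 6, 6 and 7 reads in this order. The nearest peak of replicate 1 lay at least 793 bp away from each, between midpoints. Repeats can attract reads from several places in a genome, and how reads with several matches were handled is not stated.

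In the 3′ UTR of Kmt2d the replicates did meet, without reaching the shared list. A peak of replicate 1 at 98833941 to 98833972 (fold 5.90, 8 reads) overlapped one of replicate 2 at 98833917 to 98833950 (fold 3.72, 5 reads) by 10 bp, which is 29.4% of the latter and below the 50% the list requires. The 30 bases around that overlap are shown with the stretch common to both replicates in capitals.
Kmt2d 3′ UTR, chr15:98833931-98833960, minus strand: gggttgtgttTCCTTGTTTTccactctgac

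**Figure D2:**
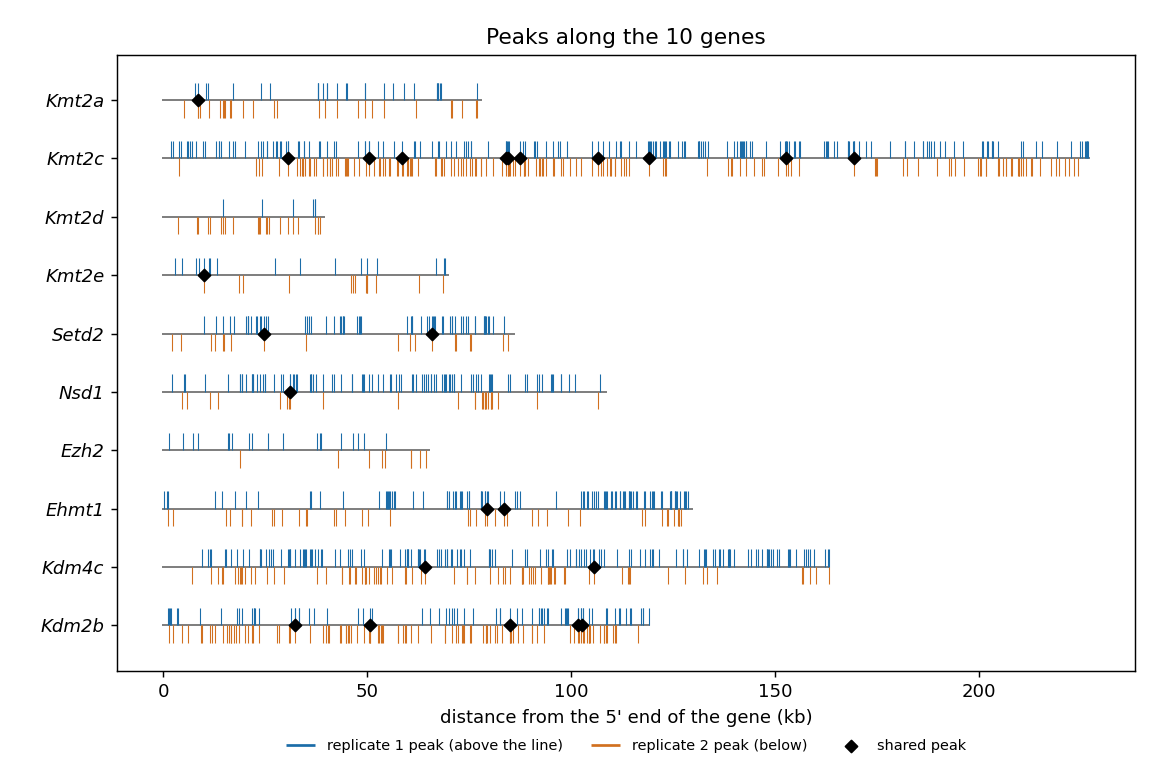
Position of every distinct peak along the 10 genes, as distance from the 5′ end in kb, with replicate 1 above each line, replicate 2 below and shared peaks as black diamonds. Peaks run along the whole of most genes, and the 24 shared peaks sit in 8 genes, 10 of them in Kmt2c.

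The enzymes that methylate H3K36 showed, with Kmt2d, the largest gaps between replicates as a ratio of peak numbers. Setd2, the main enzyme for H3K36 trimethylation, held 64 peaks in replicate 1 (0.744 per kb) and 19 in replicate 2 (0.221 per kb) over 86.0 kb (chromosome 9, 110532597 to 110618633, plus strand). Nsd1, which mono- and dimethylates H3K36, held 96 (0.885 per kb) and 25 (0.230 per kb) over 108.5 kb (chromosome 13, 55209782 to 55318325, plus strand). Both genes had more than 3 times as many peaks in replicate 1, by factors of 3.37 and 3.84. Of the 5022 genes of like length, 11.2% had a factor of 3 or more, 2.63% had at least 3 times as many in replicate 2, as Kmt2d did, and the median factor was 1.08.

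Single reads made up most of that gap. In Setd2 51 of the 64 peaks of replicate 1 had a height of 1, against 1 of 19 in replicate 2, and in Nsd1 72 of 96 against 13 of 25. With peaks of at least 2 reads only, Setd2 had 13 and 18 peaks, so that replicate 1 no longer had more. Nsd1 had 24 and 12 such peaks, a factor of 2.00.

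Setd2 had 2 shared peaks, in intron 5 (110557397 to 110557426, folds 1.88 and 3.42 on 1 and 3 reads) and intron 15 (110598423 to 110598452, folds 1.89 and 2.38 on 1 and 2 reads). Nsd1 had 1, in intron 4 (55240867 to 55240896, folds 2.84 and 1.82 on 2 and 1 reads). Each of these 3 rests on a single read in one of the replicates. In the coding sequence of Setd2 a replicate 1 peak of 30 bp (fold 2.35, 2 reads) lay wholly inside a replicate 2 peak of 115 bp (fold 3.95, 4 reads), which it covers to 26.1%, so it is not in the shared list. Its sequence, in capitals because all of it is in both replicates, is the only coding stretch of the 10 genes that could be read from a place where the replicates met.
Setd2, chr9:110547260-110547289, plus strand: AAAGGTGTTGCTTCAAGTCGATTTTTGCCC

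Ezh2, the H3K27 methyltransferase of Polycomb repressive complex PRC2, had few peaks and none that was shared. It held 19 in replicate 1 (0.291 per kb) and 9 in replicate 2 (0.138 per kb) over 65.2 kb (chromosome 6, 47530139 to 47595341, minus strand). None was a single read, which could not pass at the backgrounds of these peaks (at least 0.144 and 0.261 reads). Intron 1, 17.2 kb long, held 7 peaks in replicate 1 and 0 in replicate 2. Each replicate had 1 exonic peak.

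Ehmt1, which mono- and dimethylates H3K9 together with EHMT2, held 98 peaks in replicate 1 (0.756 per kb) and 42 in replicate 2 (0.324 per kb) over 129.7 kb (chromosome 2, 24789928 to 24919614, minus strand). Of these, 59 and 6 were single reads, and 39 and 36 peaks had at least 2 reads. The 2.33-fold gap between replicates thus came down to 1.08 without single reads. The shared peak in intron 15 (24836103 to 24836141) had folds of 3.39 and 3.93 on 3 and 4 reads, and the one in intron 11 (24840173 to 24840202) had 1.85 and 2.63 on 1 and 2 reads. The first lies 274 nt from the 5′ splice site.

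Most peaks of both demethylase genes were single reads. Kdm4c, which removes methyl groups from H3K9 and H3K36, held 151 peaks in replicate 1 (0.924 per kb, the highest of the set) and 83 in replicate 2 (0.508 per kb) over 163.4 kb (chromosome 4, 74242497 to 74405860, plus strand). Single reads were 119 and 53 of these. Its shared peak in intron 5 (74306641 to 74306670) had folds of 4.74 and 3.97 on 4 reads in each replicate, the only shared peak of the 10 genes with 4 reads in both. The other, in intron 14 (74348166 to 74348195), had 1.85 and 3.26 on 1 and 3 reads.

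Kdm2b, an H3K36 demethylase that also brings Polycomb complex PRC1.1 to CpG islands, was the only gene besides Kmt2d with more peaks in replicate 2. It held 77 (0.646 per kb) and 106 (0.890 per kb) over 119.2 kb (chromosome 5, 122870665 to 122989823, minus strand). Single reads were 59 and 87 of these. Its 5 shared peaks lay in introns 6, 9, 12 and 13, the last with 2, and every one had a height of 1 in at least 1 replicate. The highest fold among them was 2.88 in replicate 2, on 2 reads, in intron 6 (122957548 to 122957578).

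Of the 24 shared intervals 2 are covered by a transcript with a retained intron, so that their sequence could be read. They are shown with the shared interval in capitals and up to 60 bases on each side.
Ehmt1 intron 15, chr2:24836043-24836201, minus strand: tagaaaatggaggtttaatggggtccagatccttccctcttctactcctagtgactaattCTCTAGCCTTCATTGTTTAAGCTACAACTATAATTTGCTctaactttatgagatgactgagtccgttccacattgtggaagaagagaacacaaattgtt
Kdm2b intron 13, chr5:122888019-122888168, minus strand: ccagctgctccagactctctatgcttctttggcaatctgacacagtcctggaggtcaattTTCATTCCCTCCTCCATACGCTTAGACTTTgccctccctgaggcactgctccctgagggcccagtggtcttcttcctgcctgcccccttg
C or T made up 64.1% of the 39 bases of the Ehmt1 interval, 16 of them T, and 76.7% of the 30 bases of the Kdm2b interval, 12 of them T. Both rest on few reads, 3 and 4 in Ehmt1 and 1 in each replicate in Kdm2b.

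Of exonic peaks of 30 bp, 64 could be read from transcripts, and the shares of short motifs in them did not stand apart from those along the transcripts. GAC was in 20 of the 64 (31.2%, Wilson 95% interval 21.2 to 43.4), against 33.4% of all 97528 windows of 30 bases in the main transcripts of the 10 genes. GGAC was in 10.9% against 10.8%, with an interval of 5.40 to 20.9, and TTTTT in 6.25% (2.46 to 15) against 3.08%. Each was searched on the transcript strand, and a window with GGAC also counts for GAC. CAGCAG, the repeat of the Kmt2d peaks above, which are wider than 30 bp and not among the 64, was in 1.56% (0.276 to 8.33) against 4.24%. Each of the 4 window shares lies inside its interval.

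Most peaks of the 10 genes lay in introns, and so did all shared ones. In replicate 1, 60 of 746 peaks were exonic (44 in coding sequence, 14 in 3′ UTRs and 2 in 5′ UTRs), and in replicate 2, 55 of 513 (44, 10 and 1). Every other peak counted as intronic, which here means outside all exons of the basic gene set. In replicate 1 that includes 6 peaks of Kmt2c, between 25271963 and 25273379, that lie past the end of its basic transcript. They lie in a 3′ UTR of the comprehensive set, and with them counted as not intronic the share of the 746 was 91.2%. The intronic share was 92.0% and 89.3%, against 91.0% and 91.8% over protein-coding genes. Exons make up 9.17% of the 1086 kb of these genes and carried 0.603 and 0.552 peaks per kb, against 0.695 and 0.464 for introns, so per length neither class led in both replicates. All 24 shared peaks were intronic (Wilson 95% interval 86.2 to 100%), against 89.4% of shared peaks in protein-coding genes, a value inside that interval.

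**Figure D3:**
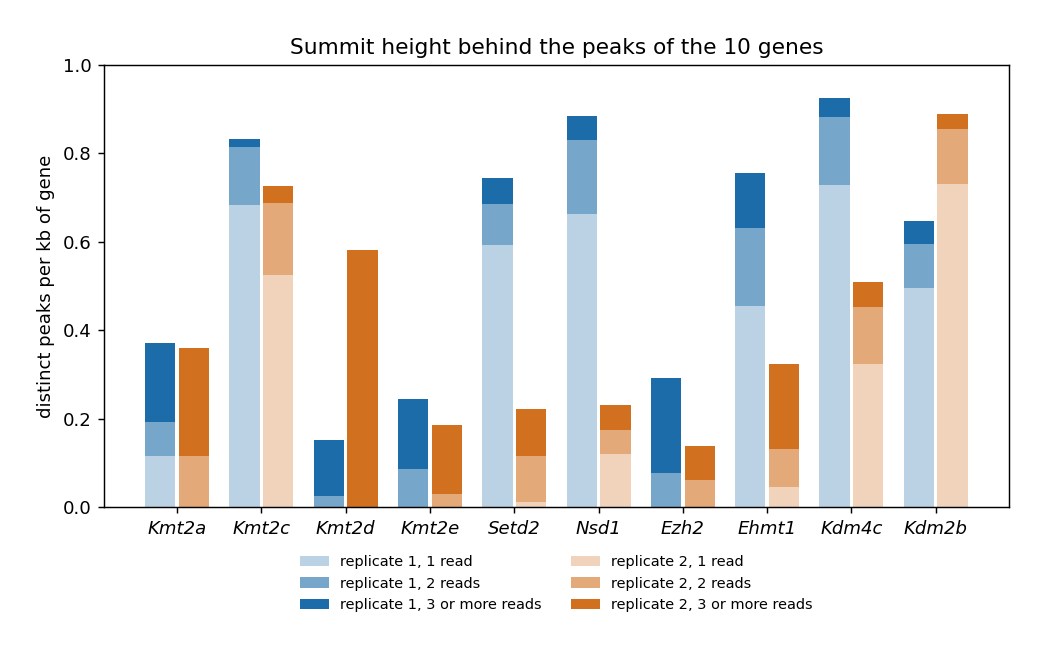
Distinct peaks per kb of gene (y axis, from 0) for each gene, replicate 1 in blue on the left and replicate 2 in orange on the right, split by summit height from light (1 read) over medium (2 reads) to dark (3 or more reads). Kmt2d, Kmt2e and Ezh2 have no light part in either replicate, and in Setd2 and Nsd1 the light part holds 51 of 64 and 72 of 96 peaks of replicate 1.

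The number of peaks per kb went with the background that the caller used. In replicate 1 the median background of a gene's peaks was above the limit for a single read (0.1035) in Kmt2a, Kmt2e, Ezh2 and Kmt2d, at 0.114, 0.198, 0.298 and 0.396 reads. These 4 had 0.152 to 0.372 peaks per kb. The other 6 genes, with backgrounds from 0.0499 to 0.0832, had 0.646 to 0.924. These ranges did not overlap, but single-read peaks themselves bring a gene's median below the limit, so the split is partly built in. Genes of like length went the same way, with a median of 0.797 peaks per kb among 1704 genes between 0.05 and 0.1035 and of 0.275 among 352 genes above the limit. Below 0.05, however, the median was 0.145, among 2966 genes.

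In replicate 2 more of the 10 genes were above that limit. Setd2 moved from a median background of 0.0832 reads in replicate 1 to 0.230 in replicate 2, and Ehmt1 from 0.0769 to 0.259. Nsd1 rose from 0.0763 to 0.101, just below it. These are the 3 genes other than Kmt2d whose density differed most between replicates. The 6 genes above the limit in replicate 2 had 0.138 to 0.582 peaks per kb, the highest being Kmt2d, and the 4 below it had 0.230 to 0.890, the lowest being Nsd1.

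**Figure D4:**
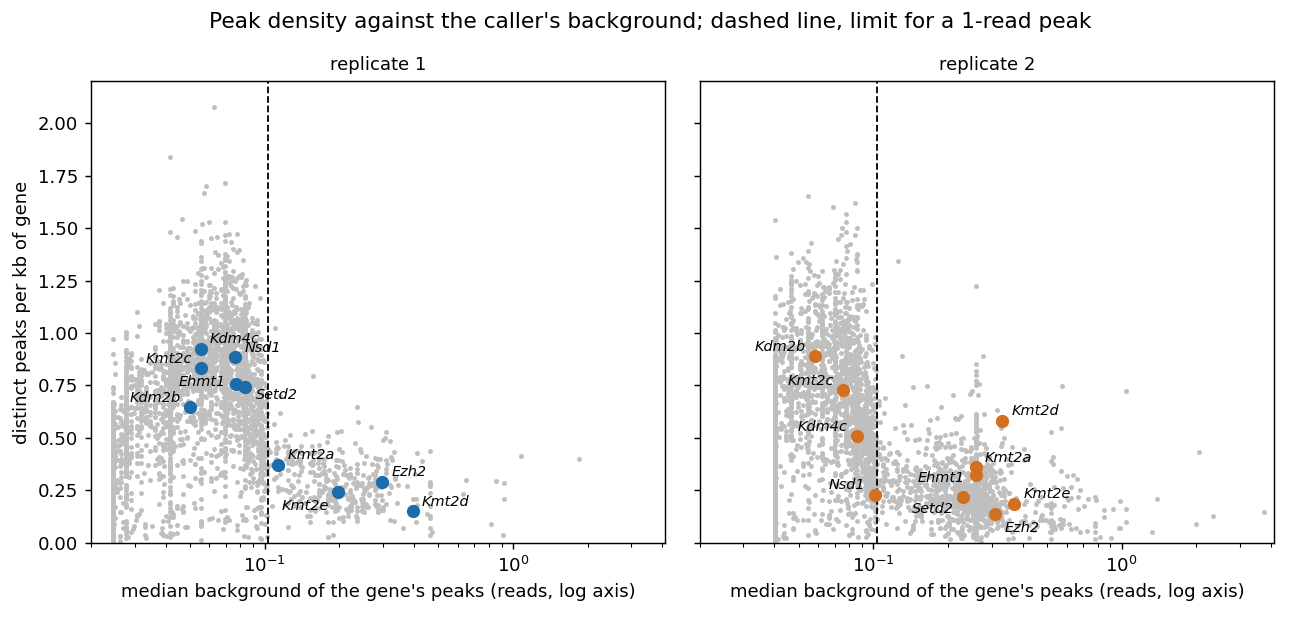
Distinct peaks per kb of gene (y axis) against the median background of the gene's peaks in reads (x axis, log scale), with replicate 1 on the left, replicate 2 on the right, the 10 genes in colour and 5022 genes of like length in grey. The dashed line at 0.1035 reads is the limit for a single read where a peak's own background is that high, and a gene right of it by its median can still hold single-read peaks; Setd2 and Ehmt1 stand left of it in replicate 1 and right of it in replicate 2.

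The median background is taken over called peaks only and so depends on which peaks were called; its part in the densities was not tested. Summed summit heights add up the reads at the summits of called peaks only, so they too depend on which peaks were called. In replicate 1 these sums varied less among the 10 genes than peaks per kb did. They ran from 0.632 to 1.203 reads per kb, a factor of 1.90, while peaks per kb ran over a factor of 6.09. In replicate 2 the factors were 6.68 for summed heights (0.405 to 2.71 reads per kb) and 6.45 for peaks. Kmt2d, at 2.71, was the highest there, and the other 9 genes had at most 1.08. Without single reads the medians of the 10 genes were 0.209 and 0.195 peaks per kb, against 0.0903 and 0.106 in genes of like length. Each of the 10 genes was above those medians, from the 64.4th percentile (Kmt2c) in replicate 1 and the 51.2nd (Nsd1) in replicate 2 upwards. Kmt2d stood highest, at the 99.5th percentile of replicate 2. With single reads included, Kmt2d, Kmt2e and Ezh2 were at the 31.5th, 38.2nd and 41.5th percentile of replicate 1.

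At least 1 shared peak was found in 8 of the 10 genes, all but Kmt2d and Ezh2. The background for this count is 41.0% of the 14290 protein-coding genes with peaks in both replicates, and 55.5% of the 5022 of like length. Pooled over their length the 10 genes had 22.1 shared peaks per Mb, against 18.9 in genes of like length, and Kmt2c alone gave 10 of the 24. With 1 list of overlaps there is no replicate of this count, and no test was made of it. Of the 513 replicate 2 peaks, 24 were shared (4.68%, Wilson 95% interval 3.16 to 6.87), against 4.76% of all replicate 2 peaks. The share rose with height over all peaks, from 3.31% at 1 read over 5.39% at 2 reads to 11.9% at 3 or more. On the 10 genes it was 3.23%, 6.14% and 6.67% in 279, 114 and 120 peaks, and the interval of the last, 3.42 to 12.6, holds the share over all peaks.

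Single reads stood behind many shared peaks, on the 10 genes and elsewhere. In 7 of the 24 both replicates had a height of 1 (29.2%, against 37.4% of all shared peaks), in 10 one replicate did (41.7% against 29.8%), and in 7 neither did (29.2% against 32.8%). The last 7 lay in Kmt2a, Kmt2c (3), Kmt2e, Ehmt1 and Kdm4c. Thus 5 of the 10 genes had such a peak, against 18.3% of protein-coding genes of all lengths. That share was not taken over genes of like length. For any shared peak it was 55.5% in those and 41.0% in all, so the 18.3% is not a like comparison. None of the 24 had a fold of at least 5 in both replicates. Of protein-coding genes of all lengths 3.93% had such a peak, and 5.54% of all shared peaks were of this kind.

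**Figure D5:**
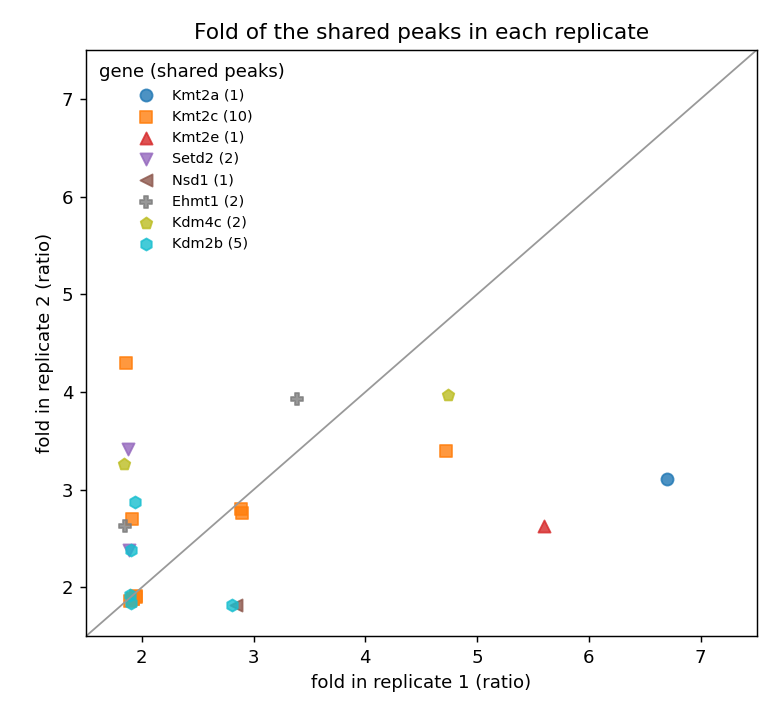
Fold of each of the 24 shared peaks in replicate 1 (x axis) and replicate 2 (y axis), with a symbol for each gene and the line of equal fold in grey. Most points lie near 1.9 on at least 1 axis, the fold of a single read. Those with at least 2 reads in both replicates stand further out, 3 in Kmt2c and 1 each in Kmt2a, Kmt2e, Kdm4c and Ehmt1. None of the 24 passes 5 on both axes.

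The folds of the shared peaks ran from 1.85 to 6.70 in replicate 1 and from 1.82 to 4.30 in replicate 2, and 17 of the 24 pairs were within a factor of 1.5 (70.8%, against 71.7% of all shared peaks). In replicate 2, 20 of the 24 had the least width of 30 bp (83.3%, against 68.1%). Of the 24, 1 lay within 100 nt of a splice site and 7 within 500 nt. These distances were not taken over all shared peaks, so the counts cannot be read as high or low. A further 13 pairs of peaks overlapped by less than the 50% rule asks, 10 with an intronic peak in replicate 2 and 3 with an exonic one (Kmt2d, Setd2 and Kdm4c).

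Other genes of the same functions also carried shared peaks. Of 37 other histone methyltransferase genes 23 had at least 1 (62.2%), and of 22 other demethylase genes with peaks in both replicates 15 did (68.2%). Among partners of the encoded proteins, 3 of 9 genes of PRC2, 6 of 12 of the COMPASS complexes, 5 of 9 of PRC1.1 and 1 of 2 partners of EHMT1 did. These lists were fixed by function, and their genes differ in length from the 10, so the shares are a description, to be read against the 41.0% of protein-coding genes and the 55.5% of those of like length.

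Unlike the 10 genes, some of these relatives had strong peaks in both replicates. Smyd3, a SET domain methyltransferase, had 23 shared peaks, of which the strongest (intronic, chromosome 1, 179238657 to 179238917) had folds of 29.4 and 23.0 on 42 and 25 reads. Uty, a Y-linked relative of the H3K27 demethylases, had 8, all within one stretch of intron, the strongest (chromosome Y, 1167529 to 1167877) with folds of 23.3 and 21.6. Hcfc1, a subunit of COMPASS complexes, had 7, up to folds of 19.5 and 21.3 (chromosome X, 73960603 to 73960875). Prdm16 had 8 with no fold above 2.78, and Kdm4a, a paralog of Kdm4c, had 7, 1 of them in its 5′ UTR (folds 2.90 and 3.64) and 1 in coding sequence.

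Markers fixed for the cell type gave little to place the line by, since peaks are not expression. Of 9 neuronal markers 7 had peaks in both replicates and 2 a shared peak, of which Map2 had 2 shared peaks and Stmn2 had 1. Of 5 astrocyte, 4 oligodendrocyte, 4 microglia and 3 endothelial markers, 4, 4, 3 and 2 had peaks in both, and 1, 1, 1 and 0 a shared peak.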

How the data were processed

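The 10 genes and the lists were chosen with earlier results of these data known. The submitters' processing notes name mm10 as the build, MACS2 2.1.1.20160309, Novoalign 3.09.00, HOMER 4.11.1, deepTools 3.2.1 and bedtools 2.25.0. Their settings, the source of the caller's background and the way peaks got a strand are not given. Each deposited peak has a score by the authors, which is 10 times its −log10 p rounded down, the deposited −log10 p itself and a deposited fold, the authors' ratio of pileup over background. Of 654978 and 581790 deposited lines, repeats were removed. The deposited overlap list equals the pairs that overlap by at least 50% of the replicate 2 peak.

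Summit heights were solved from fold and −log10 p (tolerance 0.001), a method tested on simulated peaks. Named were all 10 genes, of each the shared peak with the highest lower score, exonic shared peaks and those with a fold of at least 10 in both replicates, and of the listed relatives the 5 with most shared peaks and any with such a fold. Exons and introns were taken from the GENCODE M21 basic set. Sequences were read from GENCODE M21 transcripts, and those of the 2 shared intervals came from retained-intron transcripts outside the basic set. Genome sequence was not used here. Intervals are Wilson intervals at 95% and cover only counting error. The count table that the authors deposited (featureCounts 1.6.3 per the file headers) was left aside, because neither its 8 columns of libraries nor the 8 in the summary match a label, so the planned comparison of Mettl3 knockout with WT was not made. Computations used scipy 1.17.1, pandas 2.3.3 and numpy 2.4.6 under Python 3.11.15, with matplotlib 3.10.9 for plots.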

Additional observations from a re-analysis of the deposited data

How the results depend on the processing

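No paired analysis was possible because the library columns of the count table match no sample's labels, and the comparison of Mettl3 knockout with WT was not run, either with edgeR or with DESeq2, without a filter, with a replicate block or without each replicate. Genes with a shared peak numbered 8 with any overlap with the gene or with strand ignored, and 9 with an overlap between replicates of 1 bp; shared peaks then numbered 24, 24 and 37. With a fold of at least 5 in both replicates there were 0 genes and 0 shared peaks, and with at least 2 reads in both, a setting chosen after seeing the data, 5 genes and 7 shared peaks. The median density, 0.511 peaks per kb as the mean of both replicates, ranged from 0.342 to 0.695 when 1 replicate was left out, and was 0.202 with at least 2 reads and 0 with a fold of at least 5. The share of replicate 2 peaks that were shared, 4.68%, was 7.21% at 1 bp, 6.90% at a −log10 p of at least 3.2 and 6.41% with at least 2 reads. With the comprehensive gene set 91.7% of shared peaks were intronic. The cause of these moves was not tested, apart from the fewer peaks or looser overlap each setting itself makes. Most peaks of the set had a height of 1 (524 of 746 in replicate 1 and 279 of 513 in replicate 2). This limits the counts of the genes that hold such peaks. Kmt2d, Kmt2e and Ezh2 hold none, as their peaks have at least 2 reads. Single reads were a minority in Kmt2a (9 of 29 peaks in replicate 1 and 0 of 28 in replicate 2). The same held in replicate 2 for Setd2 (1 of 19) and Ehmt1 (6 of 42).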
